A study of Mus musculus with 11 samples.

Results

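Goblet cells were the 1448 of 55603 cells that the authors' cell table assigned to the goblet class of the colon epithelium, across 11 single-cell RNA libraries of mouse colon mucosa. Gene counts were summed over the goblet cells of each library, and levels are given as CPM, the count of a gene scaled to a total of 1000000 counts for the goblet cells of that library. The Il10-/- library came from animals of about 10 months that lacked the anti-inflammatory cytokine interleukin 10 and had colitis. The 9 DSS libraries came from wild-type mice of about 2 months that drank 3% dextran sodium sulfate (DSS), a polymer that injures the colon lining, for 6 days, and were taken on days 6, 7, 9 and 11 and on days 12, 16, 18, 19 and 23 from its start. The uninjured library came from untreated wild-type mice of about 2 months. Each group was 1 library of pooled mice, 3 mice for days 7, 11 and 18 and 8 mice for each of the others, by the cell table, so animals within a pool cannot be told apart. Days 7, 11 and 18 carried the batch label C and were run fresh, and the other libraries, which carried no batch label in the sample records, had been frozen. The cell table gives these other libraries batch A, and they are called libraries with no batch label below. The Il10-/- mice differed from the uninjured mice in age as well as genotype, and these cannot be told apart. The sex of the mice was not given. The Xist levels given below differed between these pools, and a difference in sex cannot be told apart from age and genotype either.

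Goblet cells are secretory cells of the intestinal epithelium that build and renew the mucus layer between bacteria and tissue. They fold, heavily glycosylate and store the gel-forming mucin Muc2 in granules, release it by exocytosis and by fluid secretion, and add mucus proteins such as Fcgbp, Clca1, Zg16 and Tff3. Goblet cells of the mouse colon differ along the crypt, and cells at the crypt base that express Reg4 are known as deep crypt secretory cells.

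The goblet class numbered 56 cells in the Il10-/- library. Along the DSS course it numbered 63 cells in the uninjured library, 15 (day 6), 147 (day 7), 16 (day 9), 178 (day 11), 10 (day 12), 34 (day 16), 804 (day 18), 47 (day 19) and 78 (day 23). Day 18 gave 7262689 of the 14199657 goblet counts and day 12 gave 54909. The median goblet cell held between 1557 (day 6) and 13938 (day 9) UMIs, and its mitochondrial share lay between 12.3% (day 9) and 36.6% (Il10-/-). Barcodes shared between libraries numbered 611, of which 8 belonged to a goblet cell, and none was in goblet cells of more than 1 library. UMIs of genes of other cells were present in some goblet cells, with Ptprc of white blood cells in 205, Col1a1 of fibroblasts in 131 and Pecam1 of endothelium in 29, and 30 goblet cells held more than 50000 UMIs. Whether these were doublets was not tested.

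The 4 goblet markers, Muc2, Fcgbp, Clca1 and Spink4, bore out the label in summed counts. Against the other columnar cells of the same library (the authors' colonocyte and crypt classes, 10769 cells), the median over the 11 libraries was 104-fold for Muc2, 118-fold for Fcgbp, 112-fold for Clca1 and 81.7-fold for Spink4, and each was above 1 in 11 of 11 libraries. These folds describe the class and were not tested, since the class may have been named from such genes. Muc2 gave a UMI in 8 of 10 goblet cells of day 12 and in 147 of 147 of day 7, the lowest and the highest share. For Fcgbp these shares were 47 of 78 (day 23) and 143 of 147 (day 7). For Clca1 they were 3 of 16 (day 9) and 144 of 147 (day 7), and for Spink4 7 of 15 (day 6) and 16 of 16 (day 9). In fibroblasts, which should lack Muc2, the share with a Muc2 UMI was 2.95% (Il10-/-) to 51.4% (day 18), and fibroblasts were deeper than goblet cells on day 18, with medians of 8938 and 4983 UMIs. A low share of cells with a mucus transcript can therefore be background in these libraries, and levels below rest on summed counts unless a share is named.

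Promoters are shown for Reg4, which defines the split of goblet cells described below, for Mptx1 and Saa1, which were apart in that split, and for the markers Fcgbp and Muc2. Of 10 genes looked for, 5 were matched in the RefSeq promoter table (GRCm38.p6), and Clca1, Zg16, Spink4, Tff3 and Retnlb were not in it. Each run is the 120 bases before the transcript start, on the gene's strand, 5′ to 3′, and capitals mark TATAA.
Reg4, chr3:98222036-98222155, plus strand: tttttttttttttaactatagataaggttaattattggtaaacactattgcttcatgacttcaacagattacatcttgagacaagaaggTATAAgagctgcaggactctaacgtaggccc
Mptx1, chr1:174330398-174330517, plus strand: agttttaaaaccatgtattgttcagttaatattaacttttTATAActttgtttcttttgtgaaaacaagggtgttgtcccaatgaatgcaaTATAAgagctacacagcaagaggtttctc
Fcgbp, chr7:28071116-28071235, plus strand: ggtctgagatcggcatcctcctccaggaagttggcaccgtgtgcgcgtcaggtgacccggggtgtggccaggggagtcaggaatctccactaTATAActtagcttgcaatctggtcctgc
Saa1, chr7:46742981-46743100, minus strand: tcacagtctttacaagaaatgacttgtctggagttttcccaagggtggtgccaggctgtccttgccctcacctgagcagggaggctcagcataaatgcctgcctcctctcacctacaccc
Muc2, chr7:141690220-141690339, plus strand: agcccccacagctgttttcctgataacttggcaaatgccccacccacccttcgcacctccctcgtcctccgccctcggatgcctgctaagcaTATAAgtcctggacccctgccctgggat
The motif TATAA, the core of a TATA box, began 31 bases before the start in Reg4, 29 in Mptx1 (the nearer of its 2 matches), 28 in Fcgbp and 28 in Muc2, and was not in the Saa1 window on the same strand. It was on the same strand in 8.53% of 32851 windows of this length and on either strand in 11.9%, and 3.52% held it on the same strand 40 to 16 bases before the start.

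Of the 1450 genes that met the count limits in this comparison, 76 (5.24%) were at least 4-fold higher in goblet cells than in the other columnar cells at the median of the libraries, and 78 (5.38%) were at least 4-fold lower. Beside the markers, the 20 highest included Retnlb, an antibacterial resistin-like protein (132-fold), Mptx1, a secreted pentraxin (123-fold), Reg4, a lectin (66.8-fold), Zg16, a lectin that binds Gram-positive bacteria (63.8-fold, range 0.529 to 176), the ribonuclease Ang4 (55.7-fold) and the trefoil peptide Tff3 (47.9-fold). Slc12a8 (125-fold), Hepacam2 (88.0-fold), Sval1 (84.5-fold), Hpd (82.1-fold), Ramp1 (68.6-fold), Tpsg1 (65.3-fold), Clps, pancreatic colipase (58.7-fold), Rep15 (52.5-fold), the bestrophin channel Best2 (50.7-fold) and Fer1l6 (45.8-fold) were the others among them. The fate regulators Atoh1 and Spdef were 40.9-fold and 37.9-fold higher, and Agr2, the disulfide isomerase needed for Muc2 folding, was 44.7-fold higher. The stress sensor Ern2 (10.8-fold) and the granule proteins Sytl2 (18.8-fold) and Syt7 (18.6-fold) followed. The 8 lowest medians were those of Clca4a at 0.0608, the water channel Aqp8 at 0.0626, the carbonic anhydrases Car4 and Car1 at 0.0645 and 0.0665, Clca4b at 0.0482, Cxcl5 at 0.0693, Tgm3 at 0.0824 and Cyp2c55 at 0.0848 of the level in other columnar cells. The ratios of Clca4b and the neutrophil attractant Cxcl5 were above 1 in 1 library each, the uninjured one, at 12.7 and 2.54. Goblet cells held no count of either gene there, and both values come from 3 counts put in place of 0. The same quantity for Zg16 fell below 1 in 1 library, day 12, where goblet cells had 54.6 CPM and other columnar cells 103 CPM.

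Goblet cells made up 7.57% of columnar cells in the Il10-/- library (exact 95% interval 5.77 to 9.71%). Along the course they were 8.90% in the uninjured library (6.91 to 11.2%), 5.03% (day 6), 8.52% (day 7), 4.26% (day 9), 9.74% (day 11), 2.73% (day 12, 1.32 to 4.97%), 6.84% (day 16), 18.5% (day 18, 17.3 to 19.6%), 8.39% (day 19) and 10.2% (day 23). Day 18 stood highest, and days 12, 9 and 6 lowest. Intervals cover counting error only. Among cells with at least 1000 UMIs and at most 25% mitochondrial counts, the share was 4.89% in the Il10-/- library (15 goblet cells) and 14.5% in the uninjured library (26), and day 6 was lowest at 2% (2 goblet cells), followed by day 12 at 2.87% (5), with day 18 still highest at 21.0%.

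**Figure D1:**
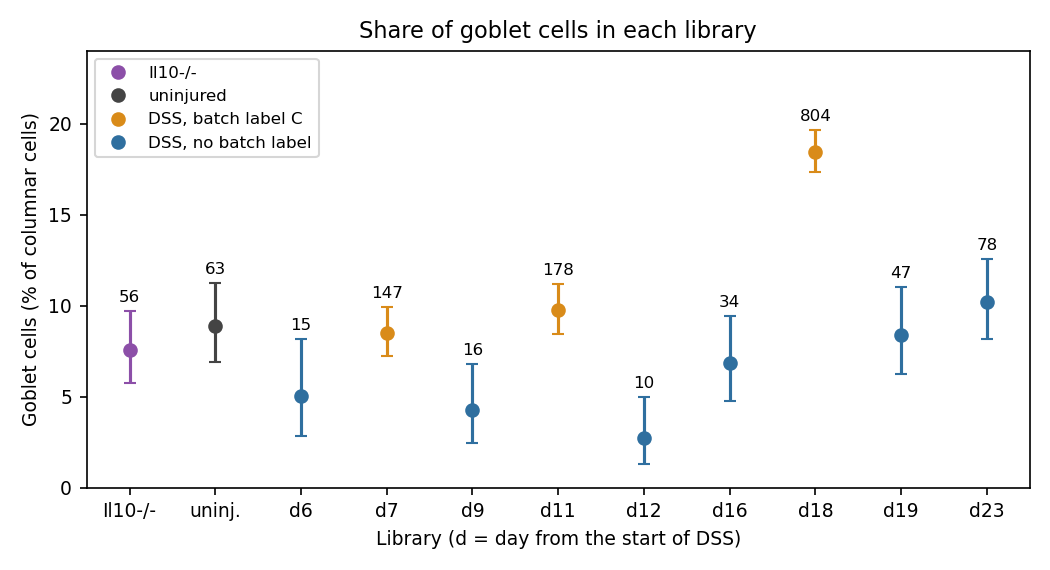
Share of goblet cells among columnar epithelial cells (%, y axis) in each library (x axis, Il10-/- first, then uninjured and DSS days), with exact 95% intervals and the number of goblet cells above each point. Day 18 (18.5%, 804 cells) lies above all other libraries, and day 12 (2.73%, 10 cells) is lowest.

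Over the 9 DSS libraries the share had a Spearman rho of 0.467 with day (exact permutation p = 0.213, two-sided) and a Pearson r of 0.495 (exact permutation p = 0.174). Without days 23 and 19, those farthest from the median day, r was 0.588. Among the 6 libraries with no batch label, rho was 0.771 (exact permutation p = 0.103) and r was 0.841 (exact permutation p = 0.0417). Without days 23 and 6, those farthest from the median day of these 6 libraries, r was 0.863. The 3 libraries of batch C were too few for a value. Of all cells, goblet cells were 0.960% in the Il10-/- library and 3.46% in the uninjured library, and between 0.244% (day 12) and 9.20% (day 18) after DSS. Neutrophils were 46.8% (day 11) and 38.6% (day 12) of all cells, against 0% in the uninjured library, and their part in this wider share was not tested.

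The gel-forming mucin Muc2 (mm10 chromosome 7, 141690340 to 141754693) had 5405 CPM in Il10-/- goblet cells. Along the course its level was 5138 CPM in uninjured goblet cells, 19626 (day 6), 18070 (day 7), 15044 (day 9), 6120 (day 11), 6647 (day 12), 11769 (day 16), 12455 (day 18), 17136 (day 19) and 19985 (day 23). All 9 DSS libraries were above the uninjured library, days 11 and 12 least. For the ratio of DSS to uninjured goblet cells, the 6 DSS libraries with at least 20 goblet cells were used (days 7, 11, 16, 18, 19 and 23), and the median of their ratios was 2.88 for Muc2. All 6 ratios share the same uninjured library, so their common direction is not independent, and with 1 library a group no ratio was tested. Days 7, 11 and 18 were fresh and of batch C, while the uninjured library was frozen. Batch and DSS cannot be told apart in the ratios of these days. Under scaling by the median of ratios, Muc2 was no longer above the uninjured library in all 6. Spink4, a serine protease inhibitor of goblet cells, had 15385 CPM in Il10-/- goblet cells, 9243 in uninjured goblet cells and up to 29485 (day 12), with a median DSS ratio of 1.61 (above in 6 of 6).

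The other mucus proteins differed between libraries in another way. Fcgbp, a mucin-like protein that cross-links the gel, had 2078 CPM in Il10-/- goblet cells, 3523 in uninjured ones, 2678 (day 6), 13381 (day 7), 1730 (day 9), 3075 (day 11), 255 (day 12), 6520 (day 16), 10520 (day 18), 3626 (day 19) and 3248 (day 23). Clca1, a metalloprotease that processes the Muc2 gel, had 788 CPM in Il10-/- goblet cells, 3615 in uninjured ones, 12265 (day 7), 9934 (day 18) and 109 (day 12). Zg16 had 10064 CPM in Il10-/- goblet cells, 12108 in uninjured ones, 65584 (day 7), 37931 (day 18) and 54.6 (day 12). All of these were highest on days 7 and 18, both of batch C, and lowest on day 12, which had 10 cells, while day 11 of batch C was below the uninjured library for each. Their median DSS ratios were 1.44, 1.003 and 1.76, with 4, 3 and 4 of 6 libraries above the uninjured one. Tff3, a peptide of mucosal repair, had a median ratio of 0.987 (3 of 6 above), from 1184 CPM (day 12) to 27999 CPM (day 7).

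Retnlb was low in uninjured goblet cells and higher in every other library. It had 554 CPM in Il10-/- goblet cells, where 50.6% of its counts lay in 1 cell. Along the course it had 22.2 CPM in uninjured goblet cells, 1594 (day 6), 138 (day 7), 2394 (day 9), 275 (day 11), 219 (day 12), 1167 (day 16), 41.3 (day 18), 759 (day 19) and 1682 (day 23). The median DSS ratio was 23.4 (above in 6 of 6), and the libraries with no batch label on days 16, 19 and 23 were all above those of batch C. On day 9, 14 of 16 goblet cells had a Retnlb UMI, against 3 of 63 in the uninjured library. Dmbt1, a scavenger protein of mucus, had 90.2 CPM in Il10-/- goblet cells and 25.3 in uninjured ones, and a median DSS ratio of 19.95 (above in 6 of 6). In other columnar cells it had 1111 CPM without injury and 1188 to 5052 CPM after DSS, more than in goblet cells in each library. Ang4 was at 0 to 252 CPM through day 19 and at 902 CPM (day 23), where 45.8% of its counts lay in 1 cell. Muc5b and Tff1 were listed at 0 in goblet cells of all libraries.

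**Figure D2:**
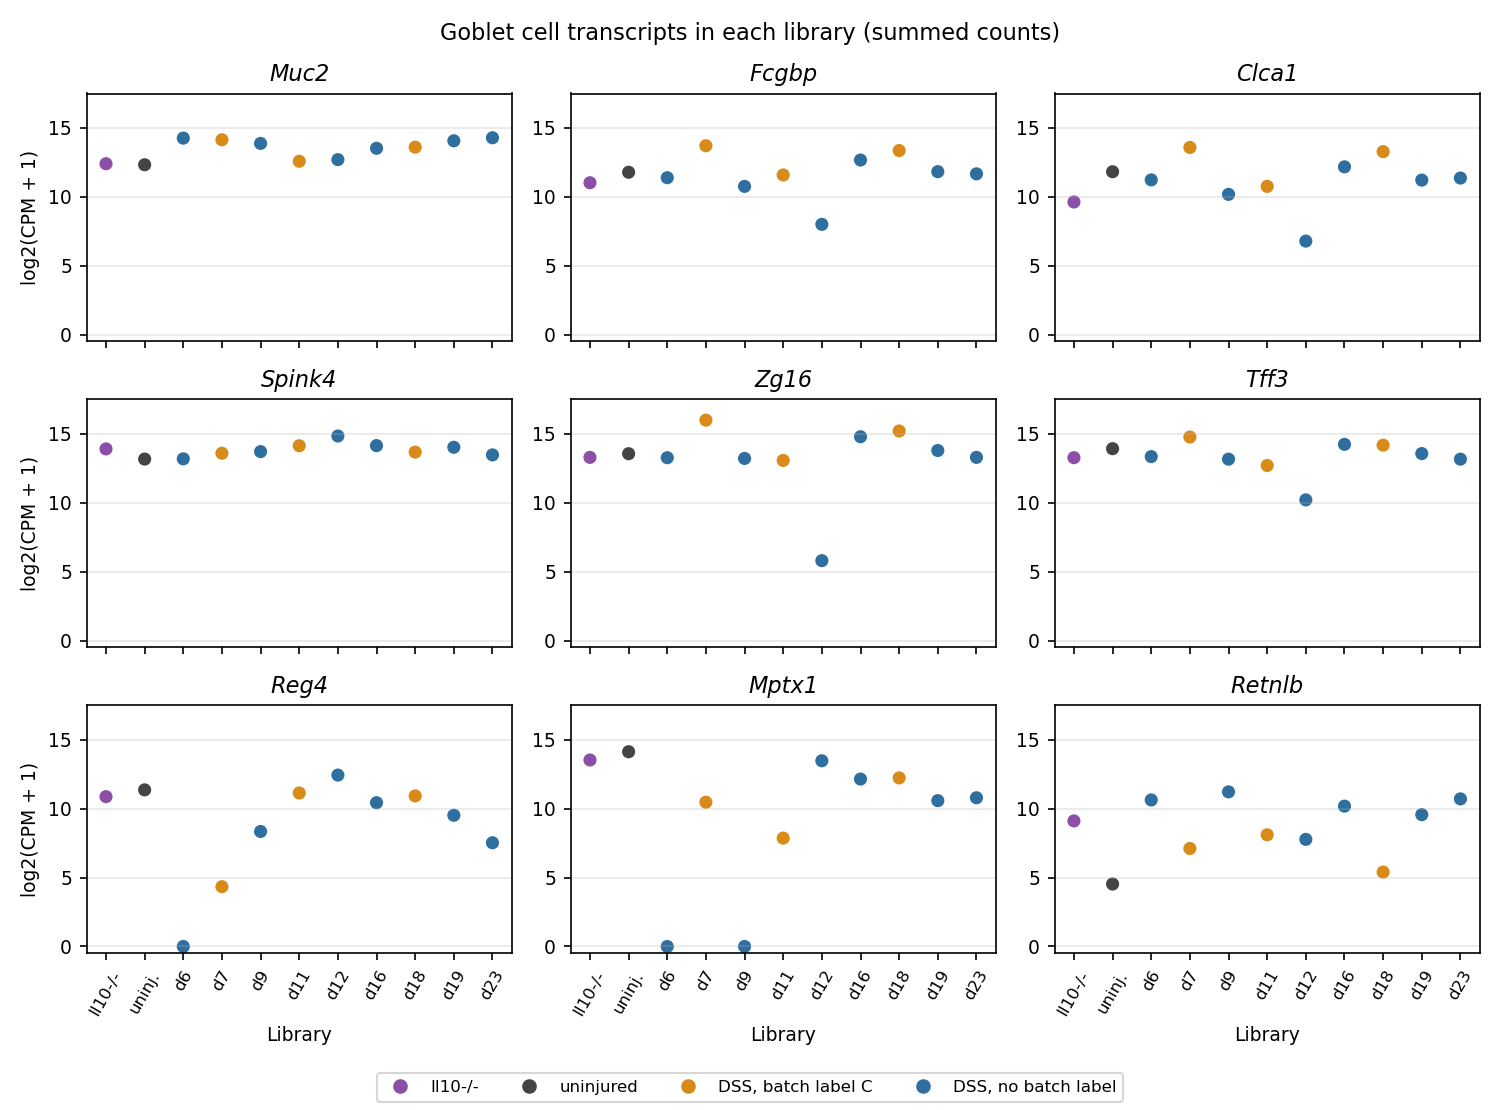
Level of 9 secreted gene products in goblet cells, as log2(CPM + 1) on the y axis, in each library on the x axis (1 point is 1 library, summed over its goblet cells; colour gives the group and batch label). Clca1, Zg16, Fcgbp and Tff3 are lowest on day 12, Reg4 is at 0 (day 6) and at 19.3 CPM (day 7), and Retnlb is lowest in the uninjured library.

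Genes of mucin folding and glycosylation were counted against the same uninjured library. Of all 2312 genes with a mean of at least 50 CPM, 559 (24.2%) were above the uninjured library in all 6 DSS libraries and 258 (11.2%) were below it in all 6. In the glycosylation and folding list, 7 of 16 compared genes were above in all 6 and 1 was below. Agr2 had 6617 CPM in Il10-/- goblet cells, 2972 in uninjured ones and 3871 (day 7) to 15627 (day 9) after DSS, with a median ratio of 3.10. The glycosyltransferases B3galt5 (3.32), Galnt3, which starts O-glycan chains (2.39), C1galt1, which builds the core of most of them (1.92), B3gnt3 (1.84) and Galnt12 (1.31), and the C1galt1 chaperone C1galt1c1 (1.66), were the others above. The sialyltransferase St3gal6 was the 1 below (0.455). With mitochondrial genes left out of the totals, 396 genes were above and 412 below, and 6 of the 16 list genes were above. St6galnac1 was listed at 0 in goblet cells of all libraries.

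Chaperones of the endoplasmic reticulum, where Muc2 is folded, were compared in the same way. Of 18 compared list genes, 10 were above the uninjured library in all 6 DSS libraries and 2 were below, beside 24.2% and 11.2% of all genes. The chaperone Hspa5 (BiP) had 521 CPM in Il10-/- goblet cells, and 383 CPM in uninjured ones, 681 (day 6), 674 (day 7), 884 (day 9), 879 (day 11), 947 (day 12), 711 (day 16), 528 (day 18), 1101 (day 19) and 769 (day 23). Its median DSS ratio was 1.93, and the same quantity was 4.71 for Sdf2l1, 2.84 for the isomerase Pdia6, 2.74 for Edem1, 2.61 for Manf, 2.61 for Dnajc3, 2.27 for Creld2 and 1.73 for Calr. Atf4 and Herpud1 were below in all 6, with medians of 0.633 and 0.777. With mitochondrial genes left out of the totals, 7 were above and 3 below, and Hsp90b1, Pdia3 and Creld2 were no longer above in all 6. All genes were then slightly more often below than above. Hspa5 was also higher after DSS in other columnar cells, at 298 (day 18) to 642 CPM (day 7) against 178 CPM without injury, so the difference was not one of goblet cells alone.

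Fate regulators did not differ in 1 direction: none of 10 compared list genes was above, or below, the uninjured library in all 6 DSS libraries, except that Hes1 was below under scaling by the median of ratios. Atoh1, the master gene of the secretory fate, had 93.5 CPM in Il10-/- goblet cells, 111 CPM in uninjured ones and 18.2 (day 12) to 179 CPM (day 16) after DSS, and Spdef, which drives goblet maturation, had 127, 158 and 109.7 (day 11) to 333 CPM (day 19). In the granule and ion transport list, 3 of 11 compared genes were below in all 6 (Best2, Slc12a2 and Stxbp2) and 1 was above (Rab27a). Among all genes, 11.2% were below and 24.2% above in all 6. Best2 had 220.5 CPM in Il10-/- goblet cells, and 279 CPM in uninjured ones, 15.5 (day 6), 80.8 (day 7), 38.2 (day 9), 204 (day 11), 164 (day 12), 154 (day 16), 157 (day 18), 46.4 (day 19) and 18.7 (day 23). Its median ratio was 0.422 (below in 6 of 6). Slc12a2, the chloride cotransporter that feeds fluid secretion, had 561 CPM in Il10-/- goblet cells and 639 in uninjured ones, with a median DSS ratio of 0.587 (below in 6 of 6). Both stayed below in all 6 under each scaling tried.

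Reg4 divided the goblet cells of a library. Reg4 (mm10 chromosome 3, 98222156 to 98236748) had 1881 CPM in Il10-/- goblet cells, and 2650 CPM in uninjured ones, 0 (day 6), 19.3 (day 7), 325 (day 9), 2262 (day 11), 5573 (day 12), 1387 (day 16), 1952 (day 18), 736 (day 19) and 184 (day 23). It was lowest on days 6 and 7, and below the uninjured library in all 6 DSS libraries with at least 20 goblet cells (median ratio 0.401). After each cell was thinned to 500 non-mitochondrial UMIs, Reg4 was seen in 32.7% of Il10-/- goblet cells, in 33.9% of uninjured ones (exact 95% interval 22.3 to 47.0%), in 0 of 13 (day 6, up to 24.7%), in 1 of 145 (day 7, 0.690%), 6.25% (day 9), 31.0% (day 11), 5 of 9 cells on day 12, 14.7% (day 16), 14.8% (day 18), 6.52% (day 19) and 5.19% (day 23). Without thinning, 44.4% of uninjured goblet cells and 1.54% of uninjured fibroblasts had a Reg4 UMI, and on day 7 the shares were 0.680% and 0.0984%. Zg16 was seen in 97.2% of thinned goblet cells on day 7 and 83.3% (day 18), and in 34.5% of Il10-/- and 29.0% of uninjured ones.

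At least 10 goblet cells of each class were present in 4 libraries: the Il10-/- library (18 with and 37 without a Reg4 UMI), the uninjured library (21 and 41), day 11 (54 and 120) and day 18 (117 and 672). The split was made after the data had been seen and a cell's class rests on few UMIs, with 9, 8, 29 and 45 cells, in the same order of libraries, holding exactly 1. Ratios are of the CPM of Reg4-positive over Reg4-negative goblet cells and were not tested. Of 819 genes with at least 20 counts in 1 class in each library, 3 (0.366%) were at least 2-fold higher in the Reg4-positive cells in all 4 libraries and 8 (0.977%) at least 2-fold lower. Of these 11 genes, 8 were called again after thinning to 1000 UMIs (5 libraries) and 7 among cells with at least 1000 UMIs and at most 25% mitochondrial counts (3 libraries).

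Clca1 had 310.0 CPM in Reg4-positive and 1155 CPM in Reg4-negative Il10-/- goblet cells, 241 and 6650 CPM in uninjured ones, 93.7 and 3178 (day 11), and 497 and 13976 (day 18). The geometric mean ratio was 0.0565 (0.0295 to 0.268 over libraries). Spink1, a trypsin inhibitor (0.0459), Saa1, an acute phase protein (0.0572), the proton pump Atp12a (0.0869), the cornified envelope gene Sprr2a3 (0.137), Pmp22 (0.255), Myo15b (0.288) and Tmcc3 (0.336) were the other genes below. Saa1 has a close copy, Saa2, so its value is uncertain in the same way as that of other such pairs. The genes above were Clps (5.14), the guanylin gene Guca2a (3.23) and Mptx1 (2.77). Mptx1 had 17277 and 7866 CPM in Reg4-positive and Reg4-negative Il10-/- goblet cells, 25571 and 11325 in uninjured ones, 322 and 154 (day 11), and 11457 and 2022 (day 18).

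The other mucus genes did not reach 2-fold in all 4 libraries. Spink4 was 2.70-fold higher in Reg4-positive cells (1.91 to 3.70), with 26880 against 7268 CPM (day 18). Muc2 had a ratio of 0.497 (0.310 to 0.666). Zg16 had 181 against 22800 CPM in the uninjured library and 2696 against 53036 CPM (day 18), but 8433 against 11342 CPM in the Il10-/- library (mean ratio 0.0713, 0.00793 to 0.744). Fcgbp (0.224, 0.104 to 0.896) and Tff3 (0.321, 0.152 to 1.17) were also nearest to equal in the Il10-/- library. Glycosylation genes (7 compared, median 1.25) and chaperones (10 compared, median 1.14) lay near the median of all 819 genes, 1.23. The classes differed in depth as well: Reg4-positive and Reg4-negative cells had median UMIs of 5878 and 2774 in the uninjured library and 11827 and 4542 (day 18), and the part of this in the ratios was not tested.

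**Figure D3:**
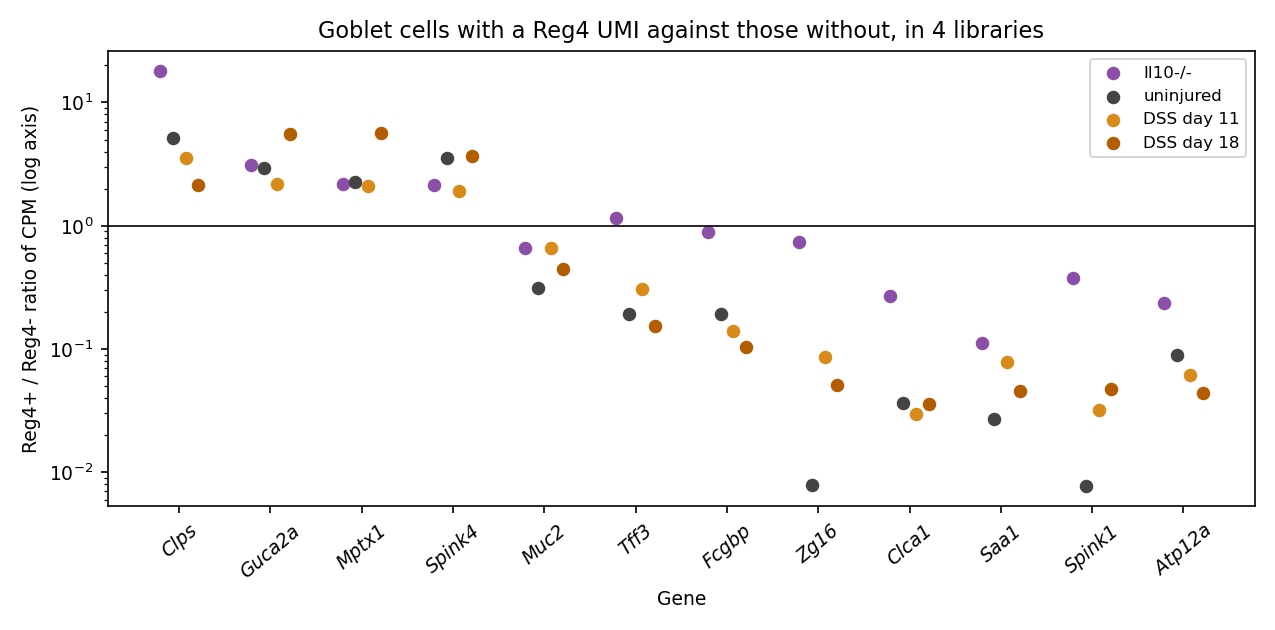
Ratio of the CPM of Reg4-positive over Reg4-negative goblet cells (y axis, log scale) for 12 genes (x axis) in the 4 libraries with at least 10 cells of each class, 1 point for each library. Clps, Guca2a, Mptx1 and Spink4 lie above 1 and Clca1, Saa1, Spink1 and Atp12a below 1 in all 4 libraries, while Zg16 and Fcgbp lie nearest to 1 in the Il10-/- library.

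Across single cells within a library, as a description, the thinned counts of Clca1 and Zg16 had Spearman rho from 0.461 (day 7, 145 cells) to 0.913 (day 16, 34 cells), and those of Reg4 and Zg16 from -0.471 (day 18, 789 cells) to 0.0528 (day 7), where 1 cell was Reg4-positive.

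Mptx1 was lower in goblet cells of every DSS library than in uninjured ones. It has a close copy, Mptx2, and reads of such pairs can be split in counting. It had 11905 CPM in Il10-/- goblet cells, and 18040 CPM in uninjured ones, 0 (day 6), 1422 (day 7), 0 (day 9), 233 (day 11), 11455 (day 12), 4563 (day 16), 4830 (day 18), 1539 (day 19) and 1779 (day 23). The median ratio was 0.0920 over the 6 compared, and days 6 and 9 held no count. Few cells set some of these levels: 3 of 10 cells had a UMI on day 12, and 1 cell held 64.9% of the counts there, 69.1% (day 19) and 64.2% (day 23), whereas 44 of 63 uninjured goblet cells had a UMI.

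Among genes with at least 20 counts in 1 of each pair, those at least 4-fold above and below the uninjured library were 401 (6.11%) and 89 (1.36%) for day 7 (7.47% in all), 435 (5.14%) and 35 (0.413%) for day 11 (5.55%), 34 (1.65%) and 9 (0.437%) for day 16 (2.09%), 280 (2.76%) and 93 (0.917%) for day 18 (3.68%), 68 (2.94%) and 21 (0.908%) for day 19 (3.85%), and 115 (3%) and 17 (0.443%) for day 23 (3.44%). The counts of days 7, 11 and 18 set fresh libraries of batch C against a frozen uninjured library. Batch and DSS cannot be told apart in these counts. The split moved with scaling on day 7, with 602 above and 46 below under TMM scaling and 296 and 152 without mitochondrial genes in the totals, and on day 18, with 211 and 145 without them. The 8 genes with the highest ratios were the calprotectin subunits S100a8 and S100a9, the cytokine Il1b, Ifitm1, the proton pump subunit Atp6v0c, the neutrophil attractant Cxcl2, Cd52 and Wfdc17. Each had 0 to 3 counts in uninjured goblet cells, so no fold is given. S100a8 had 89.1 (day 23) to 14919 CPM (day 11) after DSS, against 3.17 CPM in uninjured goblet cells. S100a8, S100a9, Il1b, Cxcl2 and Wfdc17 are abundant in neutrophils. The summed level of the 6 neutrophil markers in goblet cells was 885 CPM in the Il10-/- library (5 of 6 seen), 3.17 CPM in the uninjured library (1 of 6 seen), and 174 (day 23) to 33567 CPM (day 11) after DSS (3 to 6 seen), and in other columnar cells it was 3192 CPM, 4.24 CPM and 329.9 (day 23) to 10518 CPM (day 11). Its part in these ratios was not tested. Atp6v0c had 276 to 322 CPM in the batch C libraries and 0 to 2.90 CPM in the other DSS libraries.

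Among the lowest medians beside Mptx1 were those of the metalloprotease inhibitor Timp3 (0.0867), the noncoding RNA Meg3 (0.118), Tnfaip6 (0.171), Tppp3 (0.229), Cln6 (0.232) and the calcium channel Itpr1 (0.244). Meg3 had 127 CPM in uninjured goblet cells, and 6.78 (day 7), 17.3 (day 11) and 12.7 CPM (day 18) in batch C. In the libraries with no batch label it had 6.29 (day 16), 75.4 (day 19) and 71.9 CPM (day 23). Its median ratio in these libraries was 0.568, and the part of batch in the lower median was not tested. Interferon and antigen presentation genes were often higher: 6 of 10 compared were above the uninjured library in all 6 (Zbp1, Cd74, B2m, H2-K1, H2-D1 and Psmb8) under each scaling tried, against 24.2% of all genes. B2m, the light chain of MHC class I, had 902 CPM in Il10-/- goblet cells, 133 CPM in uninjured ones and 237 (day 12) to 902 CPM (day 23) after DSS. Of 14 early response genes that dissociation can induce, 4 were below in all 6 (Fos, Fosb, Ier2 and Dusp1) and 2 were above. The shares of all genes were 11.2% below and 24.2% above.

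In Il10-/- goblet cells, 33 of 1983 genes (1.66%) were at least 4-fold above and 13 (0.656%) at least 4-fold below uninjured goblet cells (2.32% in all). Intervals beside these ratios cover counting error only, and there was no replicate. The main mucus genes other than Clca1 lay within 2-fold of the uninjured library: Muc2 had a ratio of 1.05 (0.981 to 1.13), Zg16 0.831 (0.792 to 0.872) and Tff3 0.635 (0.607 to 0.665), Fcgbp 0.590 (0.534 to 0.651) and Spink4 1.66 (1.59 to 1.74). Clca1 had 788 against 3615 CPM (0.218, 0.189 to 0.251), with a UMI in 14 of 56 Il10-/- and 30 of 63 uninjured goblet cells. Among genes with enough counts, none of 14 of the 20 glycosylation genes, 14 of the 22 chaperone and folding genes or 11 of the 16 fate regulators was 4-fold away.

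Antigen presentation genes were among those with more counts in Il10-/- goblet cells. Of 24 list genes, 10 had 20 counts in 1 of the pair, and most of them reached it only in the Il10-/- library, so single genes are given and no count. Cd74, the invariant chain of MHC class II, had 852 CPM in Il10-/- goblet cells and 44.3 CPM in uninjured ones (19.2, 11.2 to 35.7), with a UMI in 75.0% and 19.0% of cells. The class II chains H2-Aa had 321 against 25.3 CPM, H2-Ab1 387 against 41.2 CPM and H2-Eb1 164 against 15.8 CPM. B2m had 902 against 133 CPM (6.78, 4.89 to 9.63), and the immunoproteasome subunit Psmb9 had 76.8 against 3.17 CPM (24.3, 3.94 to 999.8). The same genes were higher in the other columnar cells, where Cd74 had 4278 against 46.4 CPM, and in all other cells, where it had 8544 against 2838 CPM. B cell markers summed to 56.8 CPM in Il10-/- goblet cells (4 of 4 seen) and 9.50 CPM in uninjured ones, and B cells were 22.1% and 2.91% of all cells. The part of free RNA in these levels was not tested.

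**Figure D4:**
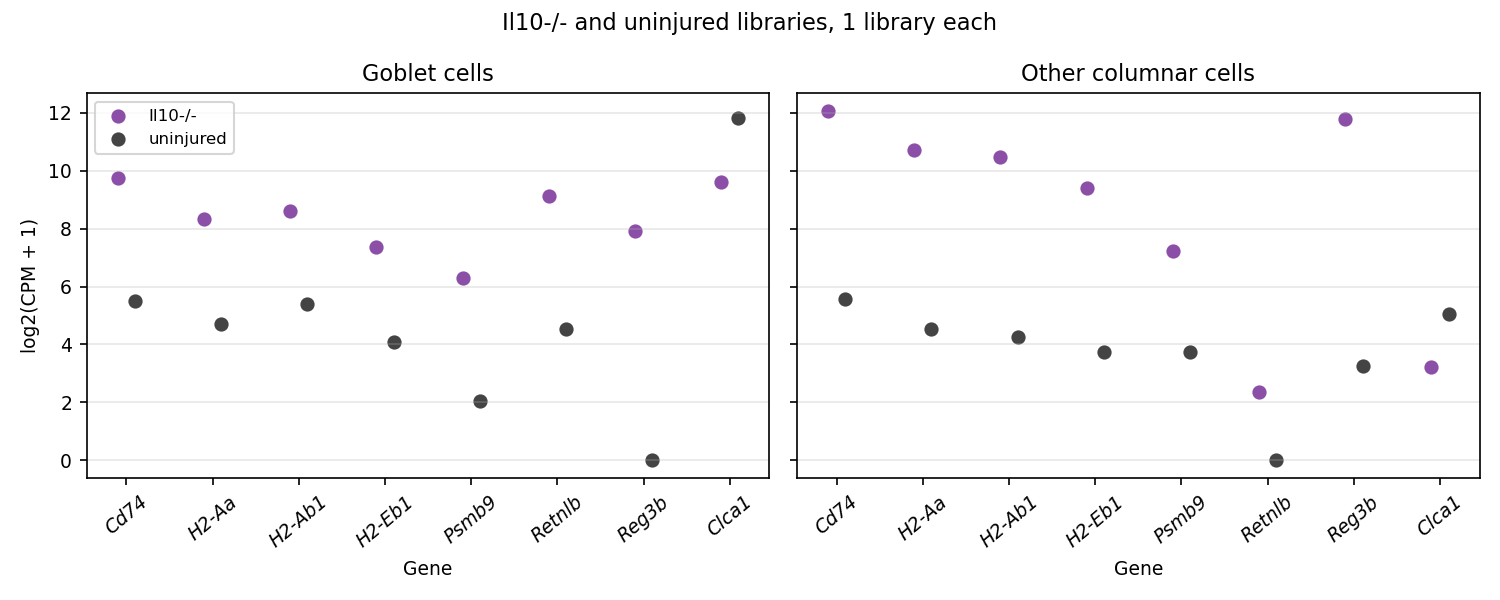
Level of 8 genes as log2(CPM + 1) in goblet cells (left panel) and other columnar cells (right panel) of the Il10-/- and uninjured libraries, 1 library each. The 4 MHC class II pathway genes are higher in the Il10-/- library in both panels, with Cd74 at 852 against 44.3 CPM in goblet cells and 4278 against 46.4 CPM in other columnar cells, and Clca1 is lower.

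Of the 20 antimicrobial and neutrophil-attracting genes, 10 had enough counts, several of them only in the Il10-/- library. Neutrophil markers (S100a8 and S100a9 are in both lists) summed to 885 CPM in Il10-/- and 3.17 CPM in uninjured goblet cells, and their part in these ratios was not tested. S100a8 had 461 against 3.17 CPM, 1 uninjured count (146, 25.7 to 5793), and S100a9 was at least 35.9-fold higher, taking 3 counts as the floor for the uninjured goblet cells. Reg3b, a C-type lectin that kills bacteria, was at least 25.3-fold higher on the same floor, with 80.6% of its counts in 1 cell. Retnlb had a ratio of 25.02 (11.9 to 63.2), Cxcl2 12.7 (3.14 to 111) and the peroxide-making oxidase Duox2 4.07 (2.23 to 7.93). Il1b (45.4, 7.72 to 1833) and Cd52 (27.4, 4.51 to 1125), each with 1 uninjured count, were also among the 8 highest. Saa1 was lower, with 341 against 2273 CPM (0.150, 0.121 to 0.185), although in other columnar cells it had 5774 against 3411 CPM. The other genes among the 8 lowest were Cyp2d34 (0.106), Timp3 (0.114), Car1 (0.124), Rbp2 (0.186), Herc1 (0.188) and Gse1 (0.211). Xist, transcribed from the inactive X chromosome, had 605 CPM in Il10-/- goblet cells and no count in uninjured ones. In other columnar cells it had 200 against 0 CPM. The sex of the mice was not given in the sources used here. A difference in sex between these pools cannot be told apart from age and genotype in the Il10-/- ratios.

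No gene passed the test for a linear trend with day in goblet cells (edgeR quasi-likelihood test with batch label as covariate, Benjamini-Hochberg adjustment), 0 of 4485 (0%), and 150 had an unadjusted p under 0.05. DESeq2 called 16. Slopes are log2 changes over 10 days. The p-values measure the spread between these libraries, 1 for each day. The smallest unadjusted p was that of the neutrophil granule gene Ngp (slope -5.25, edgeR adjusted p = 0.347), followed by the leukotriene gene Alox5ap (-2.64, edgeR adjusted p = 0.441), Saa3 (-3.44, edgeR adjusted p = 0.441) and Cd74 (1.02 ± 0.24 SE, edgeR adjusted p = 0.614). The goblet markers had a median slope of 0.20 (4 tested), glycosylation genes 0.05 (18), chaperones -0.03 (20), fate regulators 0.16 (11, 10 of them positive) and the antimicrobial list -1.87 (15, 2 of them positive), beside 0.00 for all genes. Neutrophil markers had a median slope of -3.01 (5 tested), and their part in the antimicrobial slopes was not tested. Fcgbp had a slope of 0.43 ± 0.74 (SE) and Clca1 of 0.35 ± 0.82, and both were negative when only libraries with at least 20 goblet cells were used (-0.63 and -0.52). Leaving out 1 library gave between 0 and 67 calls, with 67 without day 7.

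The day slope was then compared between goblet cells and the other columnar cells of the same libraries. It differed for 26 of 11416 genes (0.228%), with 18 (0.158%) more positive in goblet cells and 8 (0.0701%) more negative (edgeR quasi-likelihood test of the class by day term, libraries as blocks). The median of all genes was 0.11. Reg3b had a difference of -2.55 ± 0.33 (SE, edgeR adjusted p = 5.29e-05). Its goblet level was 1888 CPM (day 6), 712 (day 9), 18.2 (day 12), 173 (day 16), 31.9 (day 19) and 2.88 (day 23), and 0 on the batch C days 7, 11 and 18, while in other columnar cells it was 3634, 2344, 317, 1285, 666 and 470.3 CPM on the same days with no batch label. In goblet cells of day 6, 98.4% of its counts lay in 1 of 15 cells. Best2 had a difference of -1.96 ± 0.42 (edgeR adjusted p = 0.00698), on a level of at most 4.77 CPM in other columnar cells after DSS. Its day slope in goblet cells alone was -0.009 ± 0.73 (SE) and was not called.

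Qsox1, a sulfhydryl oxidase of the secretory pathway, had 327 CPM in Il10-/- goblet cells, 361 CPM in uninjured ones and 267 (day 23) to 377 CPM (day 18) after DSS. In other columnar cells it had 15.3 CPM in the Il10-/- library, 27.95 CPM in the uninjured library and 112 (day 7) to 21.6 CPM (day 23) after DSS, and the slopes differed by 1.09 ± 0.21 (edgeR adjusted p = 0.00389). The interferon-induced genes Oasl1 (1.65 ± 0.31, edgeR adjusted p = 0.00224) and Rsad2 (1.48 ± 0.33, edgeR adjusted p = 0.0140) were more positive in goblet cells, as were the glycolytic kinase Hk2 (0.95 ± 0.20, edgeR adjusted p = 0.00522) and the hypoxia-induced Ndrg1 (0.91 ± 0.21, edgeR adjusted p = 0.0255). In goblet cells alone, Hk2 and Ndrg1 had day slopes of -0.13 ± 0.33 and -0.02 ± 0.27 (SE). In other columnar cells their slopes were -0.94 ± 0.39 and -0.83 ± 0.21. Oasl1 and Rsad2 had slopes of 0.91 and 0.49 in goblet cells and -0.12 and -0.80 in other columnar cells. None of these separate slopes was called. Of the gene lists, 2 of 15 hypoxia and glycolysis genes (Hk2 and Ndrg1) were called in the slope difference. Oasl1 and Rsad2 were not in the interferon list, and 0 of its 24 genes, 0 of 21 chaperones and 0 of 19 glycosylation genes were called, with median differences of 0.81, 0.33 and 0.40. Without day 18 there were 10 calls, 1 of them among the 26, and without the batch term there was 1 call.

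**Figure D5:**
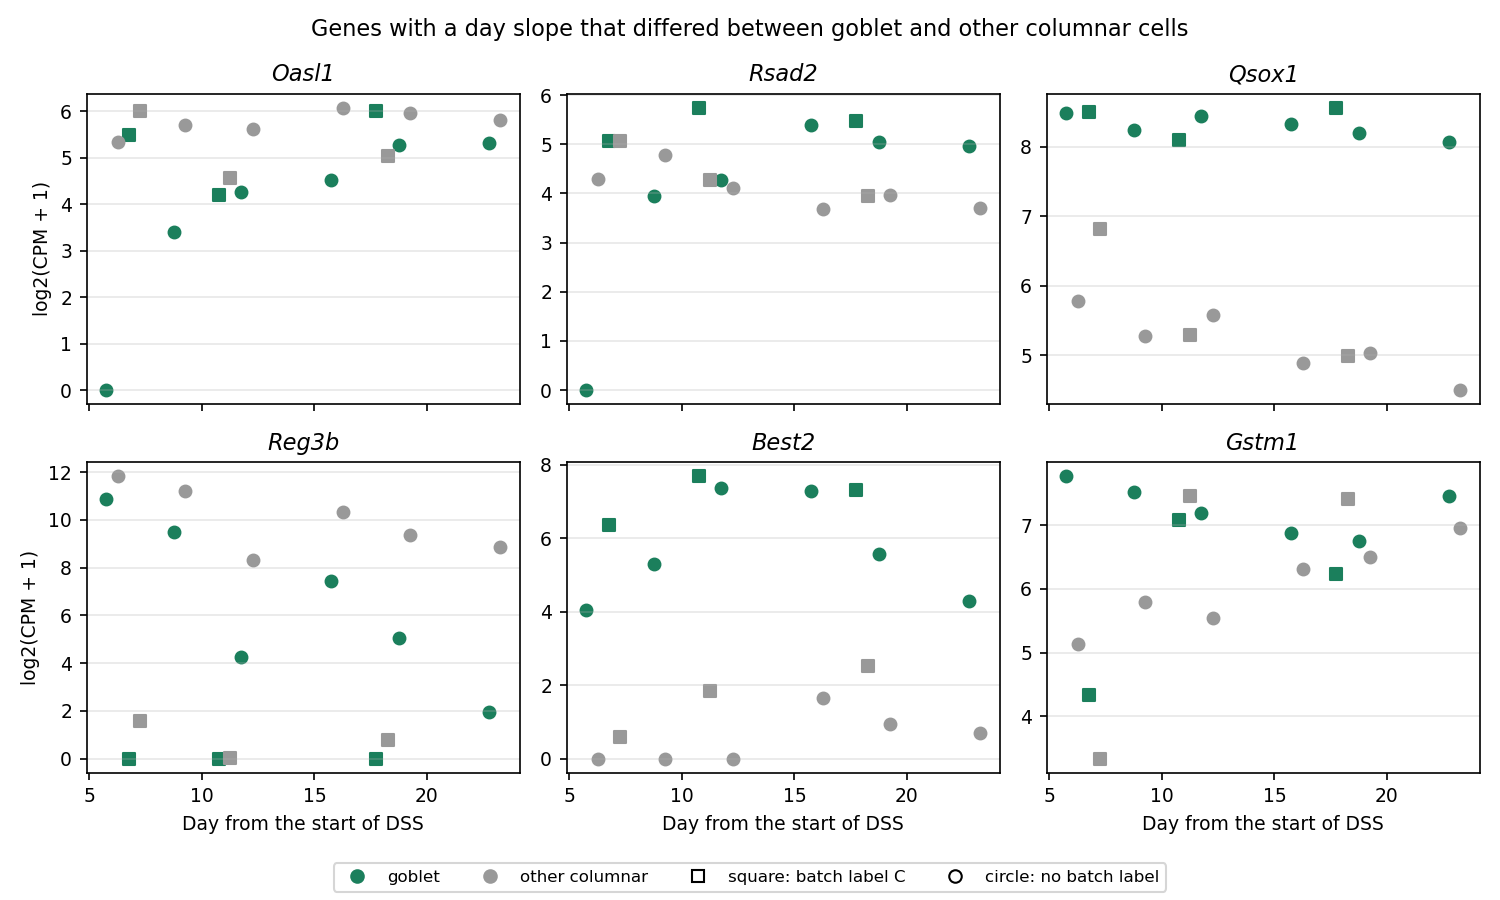
Level of 6 genes as log2(CPM + 1) on the y axis against day from the start of DSS on the x axis, in goblet cells (green) and other columnar cells (grey), with squares for batch C and circles for libraries with no batch label. Reg3b is near 0 on the 3 batch C days in both, and Qsox1 stays between 267 and 377 CPM in goblet cells while other columnar cells lie between 21.6 and 112 CPM.

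Batch label C gave more calls than day in the DSS goblet cells. Of 4485 genes, 188 (4.19%) were higher and 142 (3.17%) lower in batch C (330 in all, 7.36%; edgeR quasi-likelihood test with day as covariate). The highest were Eif4ebp3 (log2 difference 9.53), Atp6v0c (8.69), Rnasek (7.96), Mrpl53 (6.65), Lars2 (5.03), Fads2 (4.07), Lcn2 (3.92) and Timm23 (3.63). The lowest were Reg3b (-11.78), Reg3g (-8.00), the mucin glycosyltransferase B3gnt6 (-5.46), Mt3 (-4.85), Ptp4a1 (-4.79), Taf6l (-4.64), Nxpe2 (-4.33) and B4galnt1 (-3.73). Reg3b had 0 counts in all 3 batch C libraries, and Reg3b and Reg3g are close copies whose counts are uncertain. Among the members of the goblet lists, Ern2 (1.04) and the granule protein Scin (1.67) were higher and Spdef (-1.13), the crypt gene Cd24a (-1.76) and B3gnt6 lower, and none of the 4 markers was called. Of 5 neutrophil markers tested, 4 were higher. In other columnar cells Atp6v0c had 285 to 346 CPM in batch C and 0.806 to 2.11 CPM in the other DSS libraries, and Ptp4a1 3.21 to 6.44 CPM against 350.0 to 430.2 CPM. Nxpe2 did not follow its goblet direction there, with 0.550, 19.4 and 38.4 CPM in batch C (days 7, 11 and 18) and 0.518 to 6.84 CPM in the other DSS libraries. The label stands for fresh against frozen cells, the pool of mice and the days together, which cannot be told apart.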

How the data were processed

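The deposited matrix held UMI counts, whole numbers for each gene and cell, made by the authors with Cell Ranger 3.0.0 on mm10, per the submitters' processing notes; a UMI stands for 1 captured molecule and only transcript ends are read. The authors' deposited cell table (other values: library, day, batch, storage, mice, cell class) gave the goblet class. Colons had been stripped of muscle, digested with Liberase and freed of dead cells, per the labels' protocols. The sources used here do not give the authors' filters on cells or their handling of doublets. No doublet caller was run. Libraries were matched to samples by day, genotype and batch. The cell table also holds 3 libraries of a batch B that the sample labels do not name, among them an uninjured one and one of day 7 (12621 cells, 581 of them goblet in all), which were not used here, so no group had a replicate. Of the gene rows, 597 carried a placeholder for a gene (0.517% of counts, 0.485% of goblet counts) and were left out. Aldoa was not matched.

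Counts were summed over the goblet cells and over the other columnar cells of each library. Trends used edgeR 4.0.16 in R 4.3.3 (TMM, filterByExpr, robust quasi-likelihood fit; day in units of 10 days, batch label as covariate; threshold 0.05) on the 9 DSS libraries, each with at least 10 goblet cells; DESeq2 1.42.0 was an alternative. The slope difference had the library as a block. Ratios to the uninjured library needed 20 goblet cells and 20 counts in 1 of the pair, with 3 counts put in place of a count of 0 (ratios against 1 or 2 counts use the count itself) and exact Poisson intervals (95%). The same floor was used for goblet over other columnar cells. Shares had exact Clopper-Pearson intervals and exact permutation tests (scipy 1.17.1). The fits were tested on simulated data. Members and gene lists were chosen with earlier results of these data known, and the Reg4 split, with its alternatives, and the counts of genes on 1 side of the uninjured library in 6 libraries were chosen after seeing the data. Named genes were the 8 highest and 8 lowest (6 for slope differences, 20 for goblet over other columnar) among those past the limits, the markers, called list members and list members with the largest change or level; predicted, ribosomal and mitochondrial genes were counted and not named. A gene that this rule names is not reported here.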

Additional observations from a re-analysis of the deposited data

Results flagged for a closer look

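These genes had a day slope (log2 over 10 days) in goblet cells that differed from that in the other columnar cells of the same 9 DSS libraries, by the test of the difference itself (edgeR quasi-likelihood, adjusted p under 0.05). More positive in goblet cells were Pnliprp2 (5.25), Chga (4.12), Chgb (2.97), Oasl1 (1.65), Rsad2 (1.48), Adm (1.29), Coro2a (1.24), Qsox1 (1.09), Dusp6 (1.07), Hk2 (0.95) and Ndrg1 (0.91). More negative were Lyz1 (-4.52), Reg3b (-2.55), Best2 (-1.96), C3 (-1.40), Gstm1 (-1.17) and Tcea3 (-1.13). Chga and Chgb, granule proteins of enteroendocrine cells, were at most 4.31 and 15.5 CPM in goblet cells after DSS, and in other columnar cells Chgb had 47.5 CPM on day 6, 52.9 on day 7 and 1.43 on day 23. Lyz1 has a close copy, Lyz2, and is uncertain. Its goblet counts after DSS were 602 on day 11, 236 on day 18, 2 each on days 12 and 16, and 0 on the other days. Its day slope in goblet cells alone was -0.73 ± 2.66 (SE) and was not called. Among the DSS libraries Pnliprp2 had goblet counts on days 7 and 18 alone, 7 and 59.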

How the results depend on the processing

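Among called values, 1 changed sign: the Pnliprp2 slope difference was -2.80 without day 18 (edgeR adjusted p = 0.993). The day slopes of Muc2, Fcgbp, Clca1, Spink4, Zg16, Tff3, Retnlb and Reg4, none of them called, changed sign under at least 1 alternative. The day trend gave 16 calls with DESeq2, 136 with no filter on low counts, 1 with at least 20 goblet cells per library, 9 in the 6 unlabelled libraries, and 0 to 67 leaving out 1 library. The slope difference gave 2 calls with DESeq2, 76 with no filter, 1 with no batch term, 15 in the 6 unlabelled libraries, and 10 to 135 leaving out 1 library (day 18 lowest, day 7 highest, 130 without day 11). Of the 26 main calls, 2 were among those 15, and 21 were tested there. With at least 20 goblet cells per library 27 genes were called, 12 of them among the 26. With cells of at least 1000 UMIs and at most 25% mitochondrial counts, 14 of the 26 were called again. Leaving out 1 library kept between 1 (day 18) and 25 (day 11 or 16) of the 26. The batch term gave 29 with at least 20 goblet cells per library, 115 with cells of at least 1000 UMIs and at most 25% mitochondrial counts, and 71 to 918 leaving out 1 library (day 18 lowest, day 11 highest, 540 without day 7). With a minimum of 50 counts, genes 4-fold from uninjured numbered 313 on day 7, 17 on day 16, 27 on day 19, 57 on day 23 and 17 in Il10-/-. The Reg4 split gave 15 thinned to 1000 UMIs, 23 in cells passing those stricter limits, 6 with 50 counts, and 11 to 43 leaving out 1 library (43 without Il10-/-, 25 without day 11). The share's Pearson r was 0.841 in the 6 libraries with no batch label. For the named genes over all alternatives, the slope difference lost its call in 95 and kept it in 207, and the batch difference lost it in 16 and kept it in 192. Causes were not tested. No paired analysis was possible because each group was 1 library, so groups share no more than 1 replicate number; blocks above are libraries, within which cell classes were compared. Days 6, 9 and 12, with 15, 16 and 10 goblet cells, limit what low genes can show.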
